A study of Mus musculus with 4 samples.

Results

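The genes described here encode the enzymes, carriers and regulators that burn fatty acids and handle ketone bodies. They were chosen by name from a list of 37 genes, and a gene was read where an array feature carried its symbol and no other. That gave 35 measured genes of 30714 named genes in all. Acsl1 was not analysed here, and the feature for Etfb also carried a microRNA symbol, so its values stand apart at the end. Cells were sorted from the small intestine of mice aged 8 weeks, and total RNA of each group went on 1 of 4 Clariom D arrays. All of the mice carried Lgr5GFP-CreERT2, an allele that places GFP and a tamoxifen-activated Cre under the control of Lgr5, the gene that marks crypt base stem cells. The first group held non-stem cells without GFP and the second stem cells with GFP, both wild-type. The third held stem cells with the mutation LncGata6 mut, in a long noncoding RNA next to Gata6, and the fourth stem cells with knockout of Ehf, an ETS transcription factor of epithelia. How many mice went into each sample is not given in the sources used here. The collection protocol of every sample also speaks of a sort for ILCreg cells, an innate lymphoid type, so the gate is uncertain.

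Long-chain fatty acids are first activated to acyl-CoA by acyl-CoA synthetases and can be released again by thioesterases. The carnitine shuttle carries them into mitochondria, where repeated rounds of dehydrogenation, hydration, dehydrogenation and thiolysis shorten the chain and pass electrons through electron transfer flavoprotein to the respiratory chain. Peroxisomes run a parallel set of enzymes for very long and branched chains. The acetyl-CoA that results enters the citrate cycle or is turned into ketone bodies, and the nuclear receptor PPARalpha with its coactivator Ppargc1a switches many of these genes on. Liver, kidney proximal tubule and absorptive enterocytes are known for high expression of the pathway, and crypt stem cells are known to use it as well.

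The arrays differed in the cell types whose markers were seen, and these did not always match the labels. Values are on the log2 scale, where a difference of 1 is a 2-fold change, and a value is called background-level when it lies under a limit, the 95th percentile of the negative controls on the same array. These control limits were 5.16 for non-stem, 5.62 for wild-type stem, 5.31 for LncGata6 mutant and 5.19 for Ehf knockout cells, and 4 values in a row are always given in this order. Lgr5 read 3.03, 9.41, 3.03 and 2.79, so on the array labelled LncGata6 mutant and the array labelled Ehf knockout the sort marker was at background level. Ehf itself read 3.75, 6.99, 5.09 and 3.03, and LncGata6, listed as Gata6os, read 3.14, 4.92, 4.37 and 4.04. On the non-stem array all 10 measured liver markers of 12 listed lay between 9.48 and 12.52 and all 12 kidney tubule markers between 6.99 and 12.30, whereas on the other arrays none of these 22 genes reached the control limit. Enterocyte markers had a median of 7.97, 6.93, 10.69 and 3.08 over 12 genes. For general epithelial markers the median was 6.25, 8.39, 8.03 and 3.63 over 10 genes. Paneth cell markers had a median of 3.51, 10.01, 8.16 and 3.20 over 5 measured genes of 6 listed. All 5 reached the control limit on the wild-type stem array, so that array too held transcripts of another cell type. On the Ehf knockout array 0 of the 10 epithelial markers reached the control limit, while all 8 neutrophil markers did, with a median of 10.13. Samples are named by their labels from here on, and with 1 array per group no difference has an error or a test.

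Fatty acid oxidation genes were mostly highest on the non-stem array and lowest on the Ehf knockout array. The non-stem array was highest for 34 of the 35 genes, Acsl5 being the exception, and the Ehf knockout array was lowest for 33, Acsl4 and Acot2 being the exceptions. Among the 9526 genes that reached the control limit on any array, 46.3% were highest on the non-stem array and 49.2% lowest on the Ehf knockout array. All 35 genes reached the control limit on the non-stem array, 22 in wild-type stem cells, 29 in LncGata6 mutant cells and 13 in Ehf knockout cells. Of all named genes 26.5%, 16.5%, 20.1% and 17.4% reached it in the same order. The limit differs by array and was highest for wild-type stem (5.62), so these counts do not compare levels alone. The median level over the 35 genes was 7.59, 5.87, 6.08 and 5.03. With other scalings the non-stem array stayed highest for 32 to 34 genes and the Ehf knockout array lowest for 29 to 31.

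**Figure D1:**
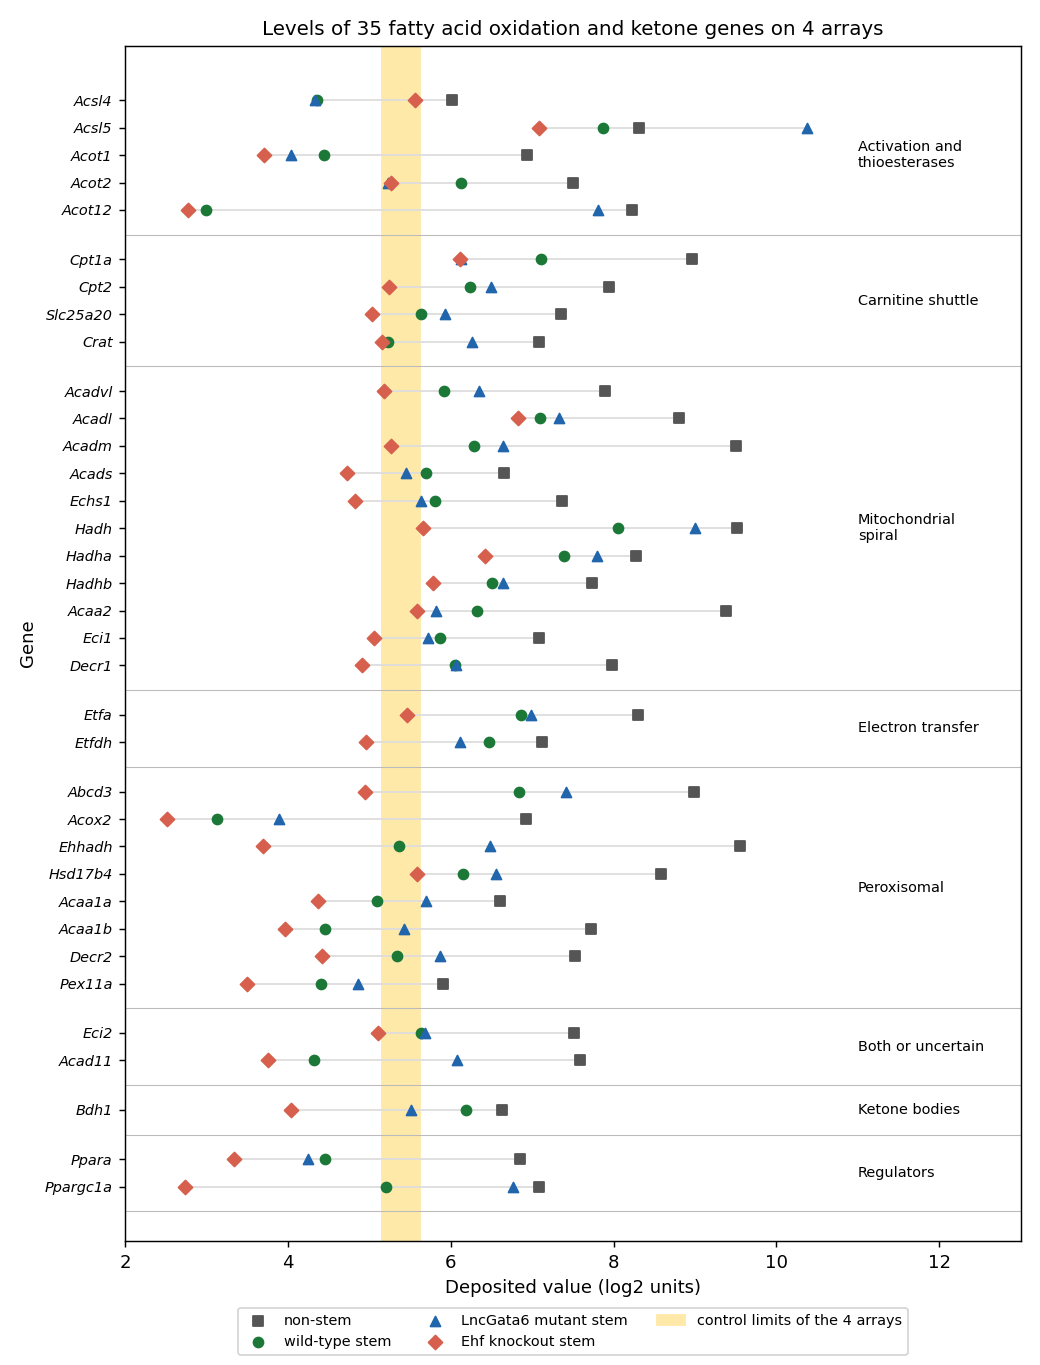
Deposited log2 value (horizontal axis) of each of the 35 measured genes in non-stem cells (square) and in stem cells that were wild-type (circle), LncGata6 mutant (triangle) or Ehf knockout (diamond), grouped by role, with 1 array per group. The band spans the control limits of the 4 arrays, 5.16 to 5.62. The squares lie farthest right for all genes except Acsl5, and the diamonds farthest left for all except Acsl4 and Acot2.

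Calls of higher or lower require a difference of at least 1 and a brighter value at or above the 75th percentile of named genes on its array. In wild-type stem cells 30 of the 35 genes were lower than in non-stem cells and 0 higher, with a median difference of -1.85. Over all named genes 7.07% were called lower and 3.83% higher, with a median difference of -0.11. Among genes at or above the control limit on either array, 25.1% were called lower and 10.7% higher. All 35 differences were below 0. Quantile normalization turned the split over all genes to 5.50% lower and 5.64% higher, and 28 of the 35 genes were then called lower. The liver and kidney markers moved with these genes, with medians of -8.49 and -6.22 over 10 and 12 genes, and their part in the result was not tested. From bulk samples, fewer cells of a type and less RNA per cell cannot be told apart.

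On the LncGata6 mutant array, 6 of the 35 genes were called higher than on the wild-type stem array and 0 lower, with a median difference of 0.29. These 6 were Acot12, Acsl5, Acad11, Ppargc1a, Ehhadh and Crat. Over all named genes 2.81% were called higher and 3.01% lower, which cyclic loess turned to 3.59% and 2.12%, and among genes at the control limit on either array 11.9% were called higher and 11.6% lower. Beside the share of detected genes, 6 of 35 is no result about the set. All 12 enterocyte markers (median 3.49) and all 9 T cell and intraepithelial lymphocyte markers (median 3.94) were higher in the same comparison, and their part in the result was not tested. Liver markers (median -0.16) and kidney markers (median 0.00) were at background level on both of these arrays.

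The Ehf knockout array was lower than the wild-type stem array for 10 of the 35 genes and higher for 1, Acsl4, with a median difference of -0.86. Lower were Ppargc1a, Hadh, Bdh1, Abcd3, Ehhadh, Etfdh, Etfa, Decr1, Acadm and Cpt1a. Over all named genes 5.28% were called lower and 2.59% higher, with a median of -0.20, and quantile normalization gave 3.37% and 3.69%. Among genes at the control limit on either array 18% were called lower and 10.4% higher. The calls of Cpt1a, Acadm and Decr1 ended under median centring, quantile normalization and cyclic loess, with differences of -0.64 to -0.96. All 10 epithelial markers were lower here (median -5.03), a larger drop than for the oxidation genes, and 8 of 8 neutrophil and 8 of 8 macrophage markers were higher. Their part in the result was not tested.

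Between the mutants, 19 of the 35 genes were higher in LncGata6 mutant than in Ehf knockout cells and 1 lower, with a median difference of 1.16. Over all named genes 6.16% were called higher and 3.47% lower, with a median of 0.13, and quantile normalization gave 4.60% and 4.73%. Among genes at the control limit on either array 23.5% were called higher and 13% lower. All 12 enterocyte and all 10 epithelial markers were also higher, by medians of 7.20 and 4.60. Against the non-stem array the LncGata6 mutant array was lower for 28 genes and higher for 1, Acsl5, with a median of -1.51, beside 6.86% lower and 3.67% higher over all genes (5.11% and 5.10% after quantile normalization) and 23.7% lower and 11.3% higher among detected genes. In that last comparison all 10 liver markers (median -8.70) and all 12 kidney markers (median -6.02) were lower as well, while all 12 enterocyte markers (median 2.63) were higher on the LncGata6 mutant array. Their part in the result was not tested. The comparisons share arrays and so are not independent of each other.

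**Figure D2:**
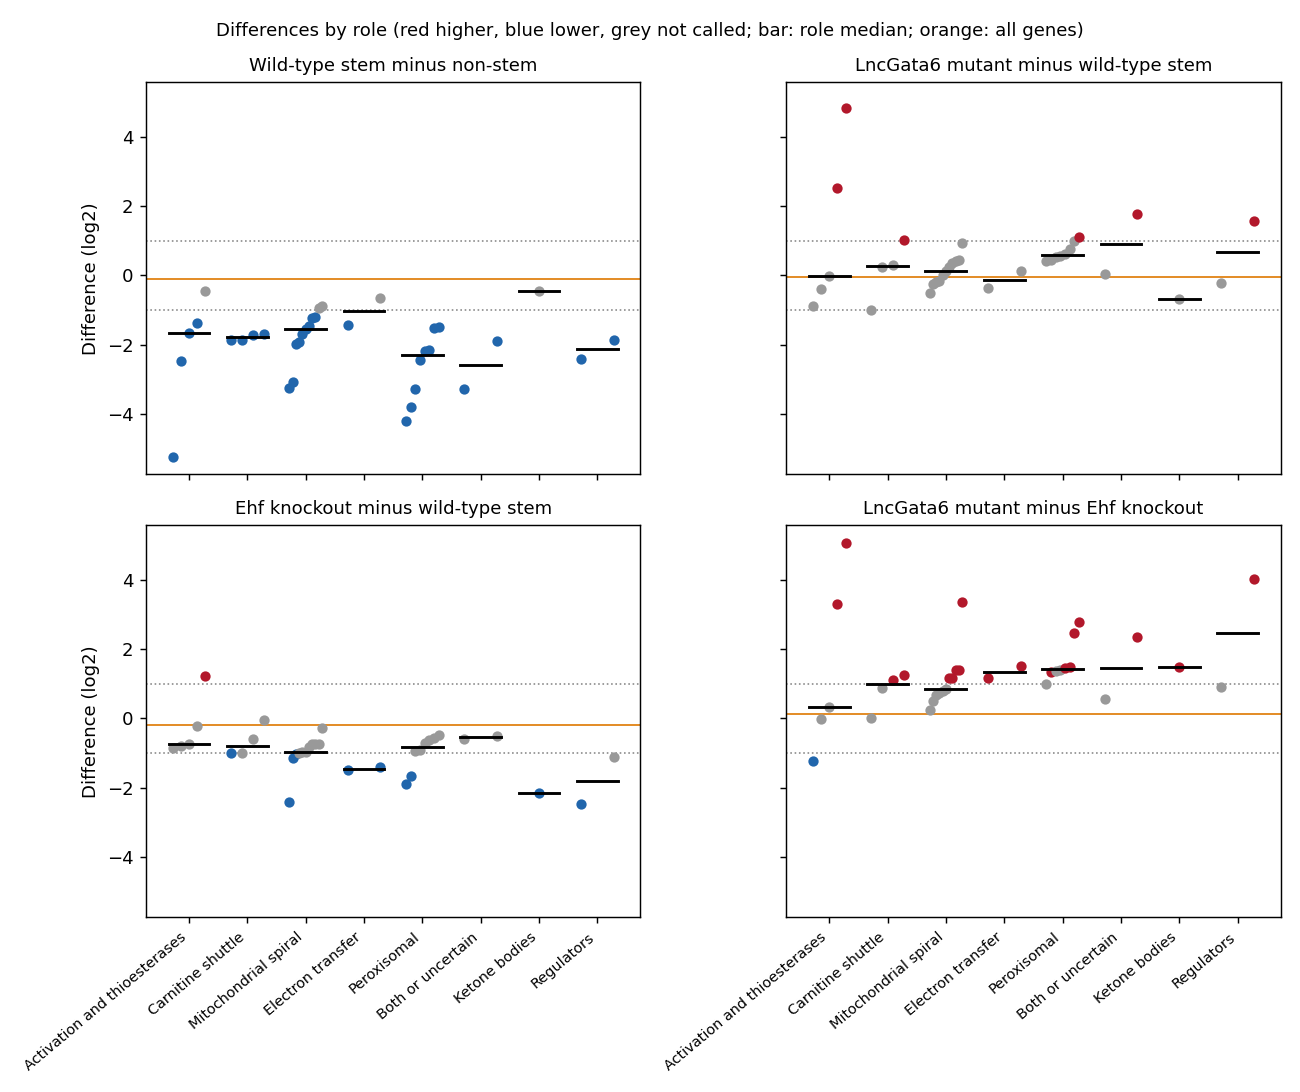
Log2 difference (vertical axis) of each measured gene in 4 comparisons, by role, with red for called higher, blue for called lower and grey for not called. Bars are role medians, dotted lines mark differences of 1 and -1, and the orange line is the median of all named genes. Every point lies below 0 for wild-type stem against non-stem, and only Acsl4 lies above 0 for Ehf knockout against wild-type stem.

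Acot12, a thioesterase that splits acetyl-CoA, read 8.22, 2.99, 7.81 and 2.77. Of the 35 genes it had the largest log2 differences as read in both of the following comparisons. These were -5.22 between wild-type stem and non-stem cells and 4.82 between LncGata6 mutant and wild-type stem cells. Both set a measured level against a wild-type stem value under the control limit. Acot12 was thus high in non-stem and LncGata6 mutant cells and background-level in the others. It was at least 6.03-fold lower on the wild-type stem array than on the non-stem array. On the LncGata6 mutant array it was at least 4.56-fold higher than on the wild-type stem array. Where the dimmer value is at background, such folds are lower bounds computed against the control limit. These bounds do not rank Acot12 first. In the first comparison Ehhadh (at least 15.2-fold), Acadm (9.43-fold) and Acaa2 (8.33-fold) had larger folds, and in the second Acsl5 (5.71-fold). PPAR receptors bind with RXR to direct repeats of the hexamer AGGTCA with 1 base between the copies, written AGGTCANAGGTCA. The RefSeq promoter table (GRCm38.p6, 250 bases before to 50 after each start) held 31 of the 35 genes. Reading both strands, 0 of these 31 genes carried the exact repeat, 1 (3.23%) carried it with at most 1 mismatch and 5 (16.1%) with at most 2 mismatches in its 12 fixed bases. Over all 27025 genes in the table the shares were 0.0481%, 0.644% and 4.4%, and the hexamer alone, which the repeat contains, was found for 16.1% of the 31 genes and 18.1% of all. A match is a description of letters and does not show binding.

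Acot12 is shown because it had the largest log2 differences as read in these comparisons and the closest match. These are the 250 bases before its start site (GRCm38.p6, chr13:91741271-91741520, plus strand), with the match in capitals. It lies on the opposite strand and ends 97 bases before the start.
Acot12: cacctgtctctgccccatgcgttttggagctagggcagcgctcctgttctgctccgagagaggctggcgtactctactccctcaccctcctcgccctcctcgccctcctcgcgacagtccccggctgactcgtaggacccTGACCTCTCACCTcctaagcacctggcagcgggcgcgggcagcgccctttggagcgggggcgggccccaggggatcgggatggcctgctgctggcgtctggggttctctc
The 5 best matches, each read in the direction of the repeat, are given next, with bases that equal the repeat or its free middle base in capitals and mismatches in lower case.
Acot12: AGGTgAGAGGTCA
Slc25a20: AGGTgAAAGGTCg
Acox2: AGGaCAGAGGTgA
Echs1: AGGTCACgGGTCc
Etfa: AGGgCAAAGGTaA

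The acyl-CoA synthetases that activate fatty acids did not move together. Acsl5, a synthetase abundant in enterocytes, read 8.31, 7.87, 10.38 and 7.08, so it was well above the control limit on every array and highest on the LncGata6 mutant array. There it was 5.71-fold above the wild-type stem array and 4.20-fold above the non-stem array. Acsl4, which prefers arachidonic acid, read 6.02, 4.35, 4.33 and 5.56. It was at background in wild-type and LncGata6 mutant stem cells and was the one gene called higher on the Ehf knockout array, by 1.21, a difference with no fold because the bound came to under 1. The neighbouring thioesterase genes Acot1 and Acot2 are closely related and may share probes. Acot1 read 6.93, 4.44, 4.04 and 3.71 and exceeded the control limit on the non-stem array only. Acot2, the mitochondrial enzyme, read 7.50, 6.12, 5.23 and 5.26 and was 2.60-fold lower on the wild-type stem than on the non-stem array. Unlike Acot12, neither was higher on the LncGata6 mutant than on the wild-type stem array, with differences of -0.40 and -0.89.

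In the carnitine shuttle the entry enzyme behaved unlike the later steps on the LncGata6 mutant array. Cpt1a, the outer membrane carnitine palmitoyltransferase that limits entry, read 8.96, 7.11, 6.12 and 6.11. It differed by -1.85 between wild-type stem and non-stem cells, a call, and the differences of the LncGata6 mutant and Ehf knockout arrays from wild-type stem, -0.99 and -1.01, lay either side of the limit. Quantile normalization made the LncGata6 mutant difference -1.01, a call. Cpt2, its inner membrane partner, read 7.94, 6.23, 6.49 and 5.24, and the carnitine-acylcarnitine translocase Slc25a20 read 7.35, 5.63, 5.93 and 5.03. Both were lower on the wild-type stem than on the non-stem array, by 3.26-fold and 3.28-fold, and differed by 0.25 and 0.29 between the LncGata6 mutant and wild-type stem arrays. Crat, which moves short acyl groups on and off carnitine, read 7.08, 5.23, 6.26 and 5.16. It was at background in wild-type and Ehf knockout stem cells and at least 1.55-fold higher on the LncGata6 mutant array than on the wild-type stem array. Its call against the Ehf knockout array (1.10) ended under all 3 other scalings, with 0.73 to 0.92.

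The 11 enzymes of the mitochondrial spiral were all above the control limit on 3 of the arrays, and 6 of them on the Ehf knockout array. Their median difference was -1.55 for wild-type stem against non-stem (9 of 11 lower). Against wild-type stem it was 0.13 for the LncGata6 mutant (0 of 11 either way) and -0.98 for the Ehf knockout (3 of 11 lower). The shares among genes at the control limit on either array were 25.1% lower for the first comparison. They were 11.9% higher and 11.6% lower for the second, and 18% lower for the third. Beside 18%, 3 of 11 is no result about the spiral. The acyl-CoA dehydrogenases take the first step, each for a range of chain lengths. Acadm, for medium chains, read 9.51, 6.28, 6.64 and 5.26 and was 9.43-fold lower on the wild-type stem than on the non-stem array. Acadvl, for very long chains, read 7.90, 5.91, 6.34 and 5.18, a 3.97-fold difference between the first pair. Acadl, for long chains, read 8.80, 7.10, 7.33 and 6.83, so the 3 sorted stem cell arrays lay within 0.50 of each other. Acads, for short chains, read 6.65, 5.70, 5.45 and 4.72 and was not called between the wild-type stem and non-stem arrays.

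Among the 11 enzymes of the spiral, the one that differed most among the stem cell arrays took part in a later step. Hadh, the hydroxyacyl-CoA dehydrogenase for medium and short chains, read 9.52 in non-stem, 8.06 in wild-type stem and 5.66 in Ehf knockout cells. In LncGata6 mutant cells it lay 0.94 above wild-type stem and differed from non-stem by -0.52. It was 5.28-fold lower on the Ehf knockout than on the wild-type stem array and 10.1-fold higher on the LncGata6 mutant than on the Ehf knockout array. The difference between LncGata6 mutant and wild-type stem became a call under quantile normalization (1.19) and cyclic loess (1.21). Acaa2, the mitochondrial thiolase that ends each round, read 9.38, 6.32, 5.82 and 5.58, which put all 3 stem cell arrays far below the non-stem array, by 8.33-fold for wild-type. Echs1, the enoyl-CoA hydratase, read 7.36, 5.81, 5.63 and 4.82. The auxiliary enzymes for unsaturated chains, Eci1 (an isomerase) at 7.08, 5.87, 5.72 and 5.05 and Decr1 (a dienoyl-CoA reductase) at 7.98, 6.05, 6.06 and 4.91, showed the same order of the non-stem, wild-type stem and Ehf knockout arrays. Decr1 differed by 0.01 between the LncGata6 mutant and wild-type stem arrays.

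Hadha and Hadhb encode the alpha and beta subunits of the trifunctional protein, which carries out the last 3 steps for long chains. Hadha read 8.27, 7.39, 7.80 and 6.42 and Hadhb read 7.74, 6.51, 6.64 and 5.78. The order of the arrays was the same for both subunits. Both were among the genes that differed least from non-stem to wild-type stem, by 1.84-fold and 2.35-fold, and Hadha was not called there. The start sites of this gene pair face away from each other with 272 bases between them in GRCm38.p6, and their upstream windows of 250 bases share 228. The window before Hadhb (chr5:30155003-30155252, plus strand) is shown because it serves both members, with the bases shared with the Hadha window in capitals.
Hadhb: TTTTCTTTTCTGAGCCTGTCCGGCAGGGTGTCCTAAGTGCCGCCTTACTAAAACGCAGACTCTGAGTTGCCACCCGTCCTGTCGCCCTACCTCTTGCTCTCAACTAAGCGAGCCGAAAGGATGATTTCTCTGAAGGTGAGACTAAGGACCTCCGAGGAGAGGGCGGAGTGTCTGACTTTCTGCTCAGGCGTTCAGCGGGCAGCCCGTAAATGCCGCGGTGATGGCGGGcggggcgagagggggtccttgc

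Both measured electron transfer genes, Etfa and Etfdh, were lower on the Ehf knockout than on the wild-type stem array. The feature that Etfb shares with a microRNA differed by -0.45 there, short of a call, and its values stand at the end. Etfa, the alpha subunit of the flavoprotein that collects electrons from the dehydrogenases, read 8.30, 6.86, 6.98 and 5.46 and was 2.65-fold lower on the Ehf knockout than on the wild-type stem array. Etfdh, which passes the electrons on to ubiquinone, read 7.12, 6.47, 6.11 and 4.96 and was at least 2.42-fold lower there. For Etfdh the difference between wild-type stem and non-stem (-0.65) was not called.

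Peroxisomal genes were further below the non-stem array than mitochondrial ones, and all 8 of 8 were called lower in wild-type stem cells, with a median difference of -2.30 beside -1.55 for the mitochondrial spiral. On the LncGata6 mutant array all 8 lay above their wild-type stem values, by 0.41 to 1.12 with a median of 0.59 beside 0.13, and 1 was called. Between LncGata6 mutant and Ehf knockout cells, the former were higher for 5 of 8 (median 1.42) and for 5 of 11 mitochondrial enzymes (median 0.85). In the order of these comparisons, 25.1% of detected genes were called lower, 11.9% higher and 23.5% higher. The medians over all named genes were -0.11, -0.06 and 0.13. Genes are not replicates and the difference between the compartments was not tested. On the wild-type stem array 2 of 8 peroxisomal genes reached the control limit, against 11 of 11 mitochondrial ones, so most peroxisomal differences set a measured level against a background-level value.

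Ehhadh, the bifunctional hydratase and dehydrogenase of the classical peroxisomal route, read 9.55, 5.36, 6.48 and 3.69. It was at least 15.2-fold lower on the wild-type stem than on the non-stem array, at least 1.81-fold higher on the LncGata6 mutant than on the wild-type stem array, and differed by -1.67 between Ehf knockout and wild-type stem with both values at background. Hsd17b4, the second bifunctional enzyme, which handles branched chains, read 8.58, 6.15, 6.56 and 5.58 and stayed above the control limit on every array. Abcd3, a transporter that brings acyl-CoA into the peroxisome, read 8.99, 6.84, 7.41 and 4.95 and was at least 3.13-fold lower on the Ehf knockout than on the wild-type stem array. Of the 8 genes, Abcd3 and Hsd17b4 were the ones above the limit on the wild-type stem array. The branched-chain oxidase Acox2, which also works on bile acid precursors, read 6.92, 3.13, 3.89 and 2.51 and was above the control limit on the non-stem array only.

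The peroxisomal thiolases Acaa1a and Acaa1b are close relatives that may share probes, yet their features did not read alike. Acaa1a read 6.61, 5.09, 5.70 and 4.37, while Acaa1b read 7.72, 4.45, 5.43 and 3.96. The difference between non-stem and wild-type stem was at least 1.98-fold for Acaa1a and at least 4.26-fold for Acaa1b. Both were higher on the LncGata6 mutant than on the wild-type stem array, by 0.61 and 0.99, without a call, and Acaa1b passed the limit under quantile normalization (1.00) and cyclic loess (1.06). Decr2, the peroxisomal dienoyl-CoA reductase, read 7.52, 5.34, 5.87 and 4.42. Pex11a, which drives division of peroxisomes, read 5.90, 4.41, 4.86 and 3.49 and was the lowest gene of the set on the non-stem array.

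Enzymes placed in both compartments or of uncertain place differed in how far they lay above wild-type stem on the LncGata6 mutant array. Acad11, a dehydrogenase for long chains, read 7.59, 4.32, 6.08 and 3.75. It was high on the non-stem array, intermediate on the LncGata6 mutant array and at background on the others, at least 1.37-fold higher on the LncGata6 mutant than on the wild-type stem array. Eci2, an isomerase found in both mitochondria and peroxisomes, read 7.51, 5.63, 5.68 and 5.11, with 0.05 between the LncGata6 mutant and wild-type stem arrays.

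Ketone handling was read through Bdh1, the mitochondrial dehydrogenase that interconverts acetoacetate and beta-hydroxybutyrate. Bdh1 read 6.63, 6.19, 5.51 and 4.04. Unlike most oxidation genes it differed little between the non-stem and wild-type stem arrays (-0.44, not called), and the Ehf knockout array stood apart, at least 2.00-fold below wild-type stem. Of other genes for ketone bodies, Acat1, the thiolase that makes acetoacetyl-CoA, read 9.92, 8.27, 7.47 and 6.55 and was 3.30-fold lower on the Ehf knockout than on the wild-type stem array. Oxct1, which lets tissues outside the liver burn ketone bodies, read 9.51, 7.06, 6.87 and 6.11 and was not called in that comparison. The cytosolic Bdh2 read 6.96, 2.41, 2.81 and 2.46.

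The regulators Ppara and Ppargc1a parted on the LncGata6 mutant array. Ppara, the receptor that switches on oxidation genes in fasting, read 6.85, 4.45, 4.24 and 3.34 and was above the control limit on the non-stem array only. Its coactivator Ppargc1a, a driver of mitochondrial gene expression, read 7.08, 5.20, 6.76 and 2.73. Ppargc1a was at least 2.20-fold higher on the LncGata6 mutant than on the wild-type stem array, and at least 2.97-fold higher than on the Ehf knockout array. For the difference of -2.47 between Ehf knockout and wild-type stem both values lay under the control limits, and neither that call nor the one for Ehhadh held when the brighter value had to reach the control limit.

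Other oxidation and ketone genes, from a list of non-members, were mostly lower on the wild-type stem than on the non-stem array. Among genes at the control limit on either array 25.1% were called lower and 10.7% higher in that comparison. Of 51 genes of the list that were measured, 33 were lower and 0 higher on the wild-type stem array (median -1.72). Largest in log2 difference were the medium-chain synthetases Acsm2 (at least 20.3-fold), Acsm1 (at least 5.19-fold) and Acsm3 (at least 13.8-fold) and the sterol carrier Scp2 (at least 21.7-fold). On the LncGata6 mutant array 4 were higher and 1 lower than on wild-type stem. Beside 11.9% higher and 11.6% lower among detected genes, these counts are no result about the list. Slc27a4, the fatty acid transporter of enterocytes, was at least 8.86-fold higher, the peroxisomal carnitine transferase Crot 4.01-fold and the phytanoyl-CoA hydroxylase Phyh 2.71-fold, while Acox3 differed by 1.01, with no fold because the bound came to under 1. Mcee, of propionate breakdown, was the lower one. On the Ehf knockout array 7 were lower, with the largest difference for the transporter Slc27a2 (at least 2.96-fold), and 1 higher, the peroxisomal transporter Abcd2 (2.93, again with no fold). Beside 18% lower and 10.4% higher among detected genes, these counts are likewise no result about the list.

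Of 18 measured PPAR targets and partners, 5 were higher and 2 lower on the LncGata6 mutant than on the wild-type stem array. Among genes at the control limit on either array 11.9% were called higher and 11.6% lower. Higher were Fabp1 (at least 14.1-fold), Vnn1 (at least 3.23-fold), the lipid droplet gene Cidec (at least 2.60-fold), Fabp2 (6.27-fold) and Creb3l3 (at least 3.11-fold), a factor of fasting. Fabp2 was also on the enterocyte list. Lower were Pdk4, which spares glucose when fat is burnt (at least 2.18-fold), and the lipid droplet coat Plin2 (2.09-fold). Pdk4 read 7.61, 6.43, 4.26 and 2.99, with the values on both mutant arrays at background level. On the wild-type stem array 10 of 18 were lower than on the non-stem array, beside 25.1% of detected genes. Cyp4a12a and Cyp4a14, omega-hydroxylases abundant in kidney and liver, were at least 8.73-fold and 8.60-fold lower there.

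The citrate cycle and fatty acid synthesis were read for the same cells. Citrate cycle genes were lower on the wild-type stem than on the non-stem array in 9 of 17 cases (median -1.01), lower on the Ehf knockout than on the wild-type stem array in 8 of 17 (median -0.98) and higher on the LncGata6 mutant than on the Ehf knockout array in 11 of 17 (median 1.05). Among detected genes the shares called the same way were 25.1%, 18% and 23.5%. The medians of the oxidation genes in these comparisons were -1.85, -0.86 and 1.16, and the lists were not tested against each other. Citrate synthase (Cs, 2.57-fold) and Ogdh (2.68-fold) were the 2 citrate cycle genes of 17 called higher on the LncGata6 mutant than on the wild-type stem array. The share among detected genes was 11.9%. Fatty acid synthesis genes were lower on the wild-type stem than on the non-stem array in 7 of 11 cases (median -1.27), led by Scd1 (at least 20.6-fold), with the elongase Elovl6 2.36-fold higher. Most genes of both directions of fat metabolism were therefore lower on the wild-type stem than on the non-stem array, the one that held liver and kidney transcripts.

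**Figure D3:**
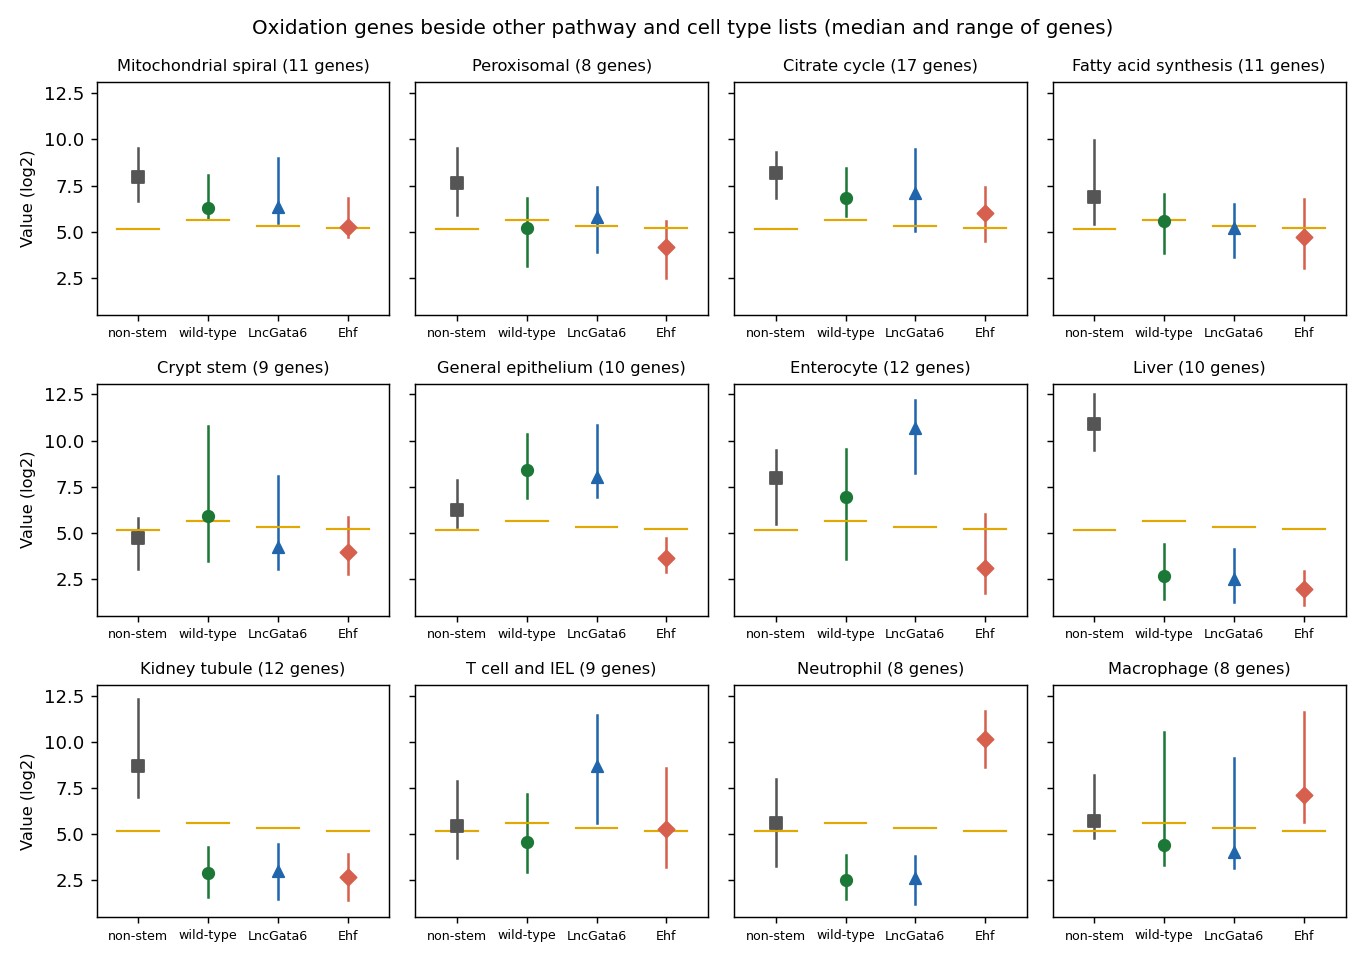
Median (symbol) and range (line) of log2 values for the genes of each list on the 4 arrays, with the control limit of each array as a short horizontal line. Mitochondrial and peroxisomal oxidation genes are highest on the non-stem array, the only array where the liver and kidney lists exceed the control limit, while enterocyte genes are highest on the LncGata6 mutant array (median 10.69) and neutrophil genes on the Ehf knockout array (median 10.13).

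Across the set, the order of levels within a gene was read for how alike the stem cell arrays were. The difference between the LncGata6 mutant and wild-type stem arrays was above 0 for 24 of the 35 genes and below 0 for 11. Acot12, Crat, Ehhadh, Acad11 and Ppargc1a were both lower on wild-type stem than on non-stem and higher on the LncGata6 mutant than on wild-type stem, 2 comparisons that share the wild-type stem array. Of these, Acot12, Crat and Ppargc1a lay within 1 of their non-stem values on the LncGata6 mutant array (-0.40, -0.82 and -0.32), as did Hadh (-0.52), Hadha (-0.47) and Acaa1a (-0.91). By contrast Acaa2 (-3.56), Acot1 (-2.89), Acadm (-2.88), Cpt1a (-2.84) and Ppara (-2.60) stayed far below. Liver and kidney markers were at background on the LncGata6 mutant array. Enterocyte markers (median 10.69) and T cell and intraepithelial lymphocyte markers (median 8.71) were at their highest there. The part of any of these cell types in the differences was not tested.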

How the data were processed

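The authors deposited 1 table for 4 Clariom D arrays, with log2 values summarised and normalized by RMA per the submitters' processing notes, which also name Affymetrix Power Tools and no version. The log scale was judged from the range of the values, -0.18 to 13.13. As background, RMA models background and summarises probes, which compresses differences of dim features.

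Of 72688 features, 31271 carried 1 gene symbol in the platform annotation, 1479 carried several and 39938 were unnamed here. Symbols were updated through a RefSeq table (GRCm38.p6) in 1121 cases. A gene with several features (442 genes) took the feature with the highest mean, as Acsl5 did. No build is named for the features, so no coordinates of features are given. The promoter coordinates come from the RefSeq promoter table (GRCm38.p6).

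Calls need a log2 difference of at least 1 and a brighter value at the 75th percentile of named genes on its array, which was 5.26, 4.97, 4.93 and 4.60. Folds are brighter over dimmer, with a dimmer value under the control limit replaced by that limit and written "at least", and none is given where the bound is under 1 or both values are under their limits. Counting was tested on simulated data. Members and lists were chosen with earlier results of these data known. All measured members are named, and of other lists up to 4 genes by size of difference. Bdh2, Oxct1, Acat1, further members of the PPAR list and the values in the last paragraph were picked after they were seen. Alternatives were 3 scalings (limma 3.58.1), 2 limits for the brighter value, another choice of feature and a larger fold. Python 3.11.15 was used. Protein sequences were not used here.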

Additional observations from a re-analysis of the deposited data

Results flagged for a closer look

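Ehhadh and Ppargc1a were called in opposite directions on the mutant arrays, each against the same wild-type stem array. Ehhadh differed by 1.12 on the LncGata6 mutant array and by -1.67 on the Ehf knockout array, and Ppargc1a by 1.56 and -2.47. With 1 array per group the difference between the mutants was not tested, and the wild-type stem values of both genes lay under the control limit.

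The feature that carries Etfb together with the microRNA Mir7051 belongs to no count or median of the report. Etfb is the beta subunit of electron transfer flavoprotein. It read 8.45 on the non-stem, 6.51 on the wild-type stem, 6.57 on the LncGata6 mutant and 6.07 on the Ehf knockout array, above the control limit on each.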

How the results depend on the processing

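Over 1050 recomputed differences of single genes, 987 kept their sign and their side of the limits. Another 41 lost a call, 8 gained one, 14 changed sign without a call and 0 called differences reversed. This total includes settings that changed only the limit or the choice of feature, where few changes were possible. Those settings kept 173, 172 and 175 of 175. Rescaling kept fewer, 162 of 175 under median centring, 149 under quantile normalization and 156 under cyclic loess. A fold limit of 1.5 (log2) in place of 1 left 6 genes lower and 0 higher for Ehf knockout against wild-type stem, 8 higher and 0 lower for LncGata6 mutant against Ehf knockout, and 18 lower for LncGata6 mutant against non-stem. Quantile normalization gave 1 gene lower, Cpt1a, for LncGata6 mutant against wild-type stem. These counts moved because the limit or the scale itself changed. All other counts of called genes stayed within 1.5 times, and every median difference kept its sign, the one for Ehf knockout against wild-type stem running from -0.86 to -0.52. No paired analysis was possible because each group has 1 array. Signal over background limits the peroxisomal genes and the regulators most.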
